A study of Homo sapiens with 16 samples.

Results

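ZFP36, ZFP36L1, ZFP36L2, BTG1, BTG2, BTG3, TOB1 and TOB2 encode regulators of mRNA decay. They were taken by their names on the array, which left out control spots, and these 8 genes of 30982 names were measured by 12 of the 40982 probes tested. ZFP36L1, BTG3, TOB1 and TOB2 had 2 probes each. A gene is described by its brighter probe, and the dimmer probe is given beside it.

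The arrays measured total RNA from Caco-2, a human colon carcinoma line used as a model of the intestinal epithelium, in its undifferentiated state. Flasks in medium with low serum received for 6 h PT-G (gliadin, the wheat protein fraction of coeliac disease, digested with pepsin and trypsin), PT (pepsin and trypsin taken through the digestion with no substrate), the synthetic gliadin peptide p31-43 at 150 µg/ml, or medium alone (MED-CTL). The paper reports that heat was used afterwards to inactivate both enzymes, and that an activity assay with a trypsin substrate checked this. Below, enzyme-treated arrays and arrays with enzymes are those of PT-G and PT, and these words imply no protease activity. The enzyme effect is their difference from MED-CTL. The comparisons ask what the digest, its heat-inactivated enzymes and the peptide do to these epithelial cells. Every condition had 4 arrays from separate experiments on 1 line, and cells of all conditions, MED-CTL included, were detached with trypsin before lysis.

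In the cell, an mRNA usually begins to decay when deadenylases such as the CCR4-NOT complex shorten its poly(A) tail, after which it is decapped and degraded. The ZFP36 proteins are zinc finger proteins that bind AU-rich elements in short-lived mRNAs, many of them for cytokines and growth regulators, and bring CCR4-NOT to them. BTG and TOB proteins share a domain that binds the deadenylase subunits CNOT7 and CNOT8, and they are known as antiproliferative factors. ZFP36 and BTG2 are also known as immediate early genes, transcribed soon after a stimulus.

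All 12 probes were well above background on all 16 arrays. The arrays lay on 5 slides, 2 scanned earlier and 3 later (early and late slides), and formed 4 runs, which are sets of arrays with a shared code in their names and 1 array of each condition. Run and replicate numbers coincide except that MED-CTL replicate 1 belongs to run 2 and MED-CTL replicate 2 to run 1. Median intensities lay between 153 and 410, the lowest on MED-CTL replicate 3 and the highest on PT replicate 3. All 8 epithelial markers exceeded background throughout. Of these, 1 passed under PT-G (KRT20, 0.63 higher on the log2 scale, limma, adjusted p = 0.0251) and 0 under PT. Of all probes, 0.593% were higher for PT-G and 0.437% for PT. CDX2 went the other way, by −0.72 under PT-G and −0.64 under PT, and did not pass. The leukocyte gene PTPRC was well above background on none, while the other 5 genes listed for leukocytes, fibroblasts and endothelium were so on all 16. None of these 6 passed an adjusted p of 0.05 under PT-G or PT, and 1 was lower at an unadjusted p under 0.05 in each comparison (COL3A1, by limma), where 3.79% of all probes were lower for PT-G and 4.79% for PT.

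ZFP36 and BTG2 rose under both PT-G and PT. Under PT-G, ZFP36 was 2.69-fold and BTG2 2.06-fold above MED-CTL, and under PT the folds were 2.63 and 1.91. The other 6 genes did not pass the test, and no gene passed it under p31-43. BTG1 was higher on every enzyme-treated array than on every MED-CTL array by smaller amounts.

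ZFP36, also named tristetraprolin, is the founding member of its family. On the normalized log2 scale its probe read 12.62, 11.78, 11.28 and 11.94 on MED-CTL replicates 1 to 4, and 12.16, 12.56, 11.76 and 12.04 on the p31-43 replicates. The PT replicates read 13.39, 13.38, 13.17 and 13.24, and the PT-G replicates 13.36, 13.68, 12.94 and 13.34. The lowest array with enzymes thus lay above the highest array without them, although the MED-CTL arrays spread over more than a log2 unit, with replicate 1 high and replicate 3 low.

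The mean difference from MED-CTL was 1.43 on the log2 scale for PT-G (SE 0.24, n = 4 arrays each, limma, adjusted p = 0.0117) and 1.39 for PT (SE 0.24, limma, adjusted p = 0.0143). Within the 4 runs, the PT-G difference was between 1.06 and 1.66 and the PT difference between 0.76 and 1.90, the smallest in run 2 in both. On the early slides alone the differences were 1.32 and 1.19, and on the late slides 1.53 and 1.60. Both comparisons use the same 4 MED-CTL arrays. Without MED-CTL replicate 2, the adjusted p for PT was 0.0559, and a fit of only the 2 groups compared gave 0.182 for PT-G and 0.115 for PT (limma).

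BTG2 encodes an antiproliferative protein that is also a target of p53. Its probe read 11.78, 11.17, 11.35 and 11.13 on MED-CTL replicates 1 to 4 and 11.46, 11.62, 11.54 and 11.23 on the p31-43 replicates. With enzymes it read 12.51, 12.23, 12.26 and 12.15 on the PT replicates and 12.37, 12.41, 12.59 and 12.24 on the PT-G replicates. Again no array with enzymes overlapped an array without them, and MED-CTL replicate 1 was the highest of its group.

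The BTG2 difference was 1.04 for PT-G (SE 0.14, n = 4 arrays each, limma, adjusted p = 0.00267) and 0.93 for PT (SE 0.14, limma, adjusted p = 0.00612). By p-value, its probe was number 44 of the 40982 probes for PT-G and number 69 for PT, and the ZFP36 probe was number 133 and number 137. Within runs the BTG2 difference was between 0.63 and 1.25 for PT-G and between 0.45 and 1.33 for PT, with run 2 again the smallest. A fit of only the 2 groups compared gave adjusted p-values of 0.0946 for PT-G and 0.101 for PT (limma).

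**Figure D1:**
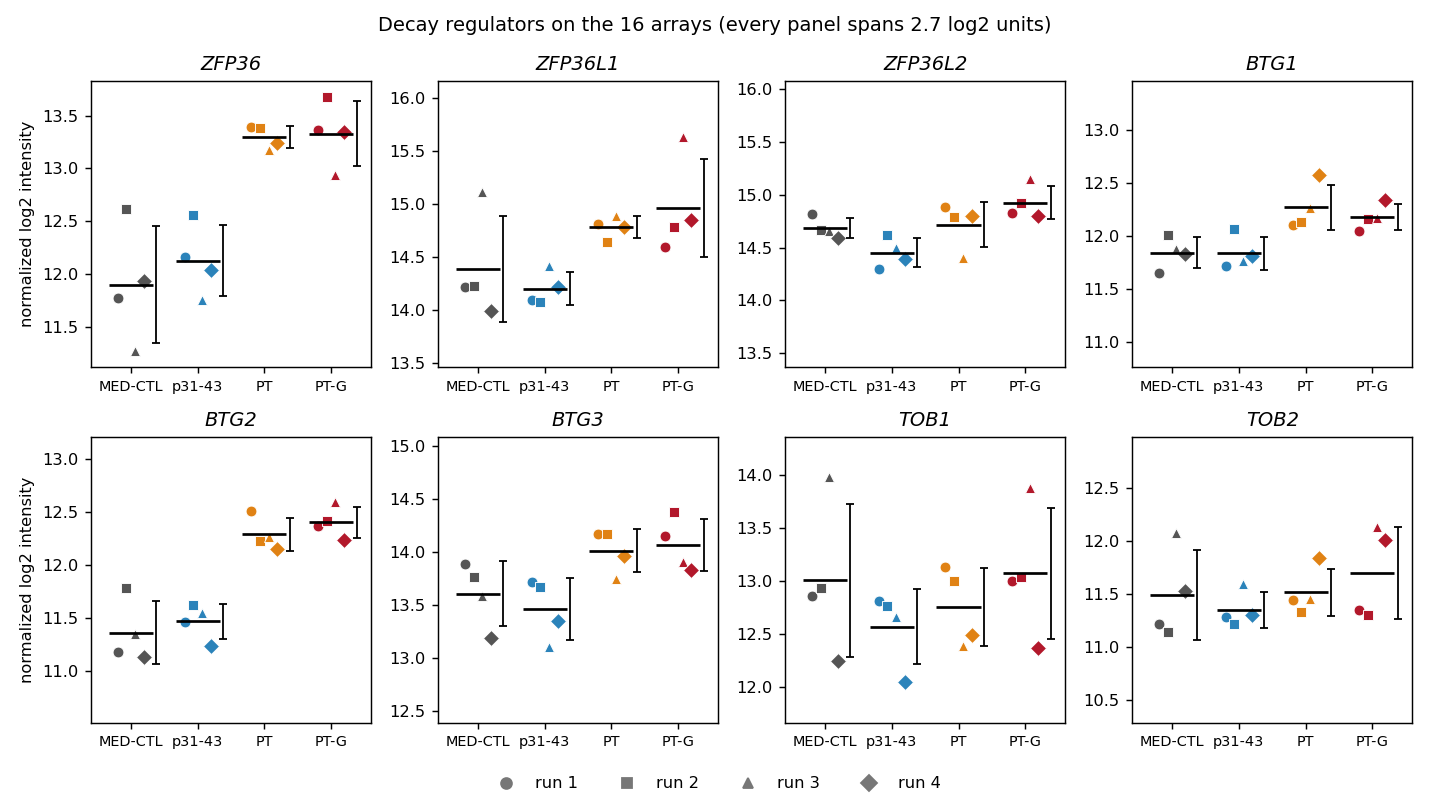
Normalized log2 intensity of the brighter probe of each gene (y axis) in the 4 conditions (x axis), 1 point per array with the marker giving the run, the horizontal line the group mean and the bar its SD (n = 4). For ZFP36 and BTG2 all 8 arrays with enzymes lie above all 8 without, while TOB1 in MED-CTL and PT-G is spread by the high run 3 arrays.

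BTG1, a close relative of BTG2 that is abundant in resting cells, read 12.01, 11.65, 11.87 and 11.83 on MED-CTL replicates 1 to 4 and 11.71, 12.06, 11.76 and 11.81 on the p31-43 replicates. The PT replicates read 12.10, 12.13, 12.26 and 12.57, and the PT-G replicates 12.05, 12.16, 12.17 and 12.34. Every array with enzymes lay above every MED-CTL array, by the narrowest of margins between PT-G replicate 1 and MED-CTL replicate 1. The difference was 0.34 for PT-G (SE 0.12, limma, adjusted p = 0.301) and 0.43 for PT (SE 0.12, limma, adjusted p = 0.131). It was positive in 4 of 4 runs in both comparisons, from 0.15 to 0.51 for PT-G and from 0.12 to 0.74 for PT. With the run as a block the adjusted p for PT was 0.0204, and with the slide as a block those for PT-G and PT were 0.0376 and 0.0221 (limma).

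BTG3 read 13.77, 13.89, 13.59 and 13.19 on MED-CTL replicates 1 to 4, and 13.72, 13.67, 13.10 and 13.35 on the p31-43 replicates. It read 14.17, 14.17, 13.75 and 13.96 on the PT replicates and 14.15, 14.38, 13.90 and 13.83 on the PT-G replicates. The early slides, which hold replicates 1 and 2, ran higher in every condition, so that the groups overlapped over all arrays. Within each run BTG3 was nevertheless above MED-CTL, by 0.26 to 0.64 under PT-G and by 0.16 to 0.78 under PT. The mean difference of 0.46 for PT-G (SE 0.18, limma, adjusted p = 0.446) and of 0.41 for PT (SE 0.18, limma, adjusted p = 0.510) did not pass. With a replicate block the SE fell to 0.10 and both passed (adjusted p = 0.0242 and 0.0390), as they did with the run (0.0190 and 0.0318), early against late slides (0.0193 and 0.0364) or the slide (0.0166 and 0.0438) as the block (limma). These fits called more of all probes too. The replicate block called 1615 for PT-G and 1776 for PT, against 387 and 336 without a block.

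The dimmer BTG3 probe gave 0.17 for PT-G (95% confidence interval −0.16 to 0.50) and 0.27 for PT (−0.06 to 0.60). Its coordinates are listed in the opposite order to those of the brighter probe and its centre lies 20149 bases away, more than the 19249 bases that RefSeq gives BTG3 in GRCh38.p14.

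At an adjusted p under 0.05, 2 of the 8 genes were higher under PT-G, where 0.593% of all probes were, and 2 of 8 under PT, where 0.437% were. At the nominal p under 0.01 that the study used, 2 genes were higher for PT-G against 1.91% of all probes and 3, with BTG1, for PT against 1.8%. For 3 of 8 genes every PT-G array lay above every MED-CTL array, against 2.01% of all probes, and the same 3 genes did so for PT, against 2.36%. No gene was lower at either threshold. The median difference of the 8 genes was 0.40 in both comparisons, while that of all probes was −0.01 in both.

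**Figure D2:**
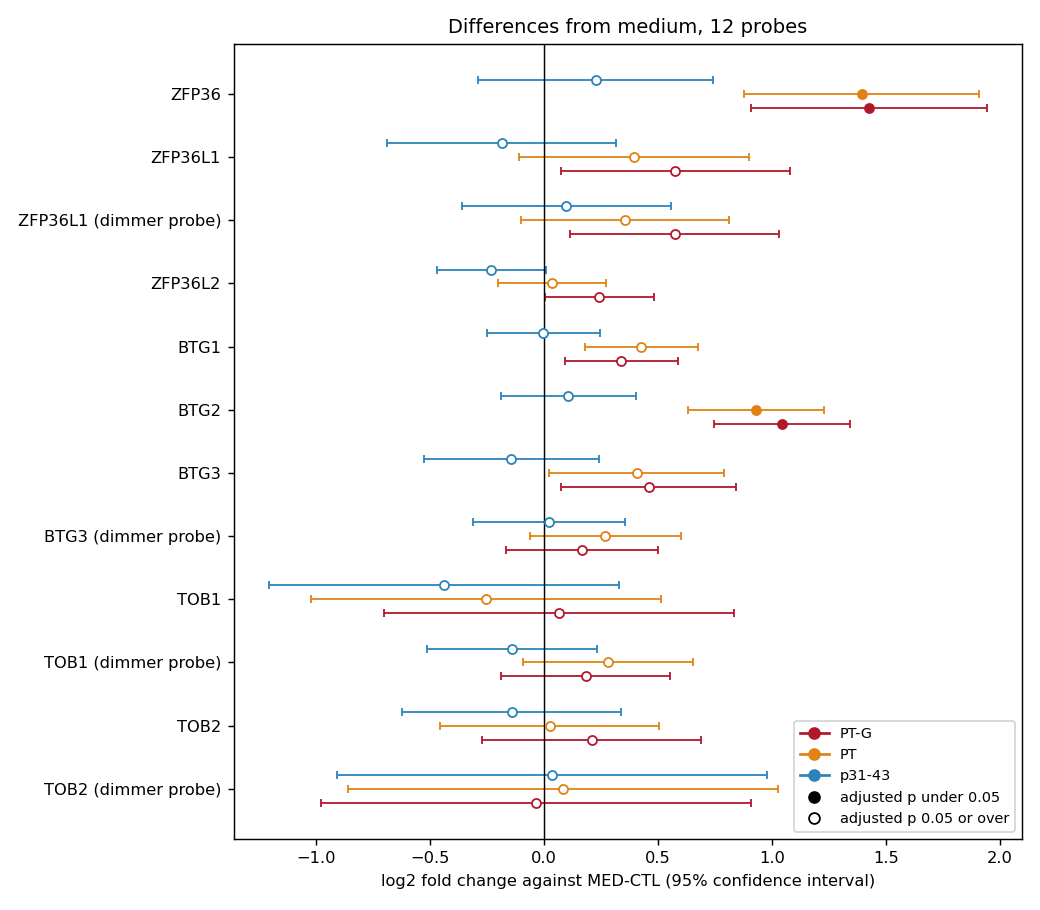
Log2 fold change against MED-CTL (x axis) with its 95% confidence interval for the 12 probes (y axis) under PT-G, PT and p31-43, filled where the adjusted p was under 0.05. ZFP36 and BTG2 are filled under PT-G and PT, and every p31-43 interval includes 0.

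The ZFP36 and BTG2 readings followed each other over the 16 arrays with Pearson r = 0.90, and 0.98 after the mean of each run was taken out. With run means out, ZFP36 had r = 0.89 with BTG1 and 0.82 with BTG3, but 0.01 with TOB1. These are descriptions over arrays that share conditions and runs.

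The sequence before the start of the genes that were higher on every enzyme-treated array, and of ZFP36L1 for its cyclic AMP response element, is shown for its known motifs. RefSeq entries were found for 7 of the 8 genes, 9 entries in all, with ZFP36L2 not among them. Each line is the 250 bases before the start in GRCh38.p14, read on the strand of the gene, and capitals mark the motifs found. ZFP36 lies at chr19:39406597-39406846 on the plus strand, BTG2 at chr1:203305269-203305518 on the plus strand, BTG1 at chr12:92145847-92146096 on the minus strand and ZFP36L1 at chr14:68793417-68793666 on the minus strand.
ZFP36: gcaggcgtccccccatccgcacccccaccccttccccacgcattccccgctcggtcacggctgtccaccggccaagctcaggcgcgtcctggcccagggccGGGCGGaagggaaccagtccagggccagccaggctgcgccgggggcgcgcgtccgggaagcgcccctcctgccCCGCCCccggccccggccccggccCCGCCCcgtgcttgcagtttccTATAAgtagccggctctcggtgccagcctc
BTG2: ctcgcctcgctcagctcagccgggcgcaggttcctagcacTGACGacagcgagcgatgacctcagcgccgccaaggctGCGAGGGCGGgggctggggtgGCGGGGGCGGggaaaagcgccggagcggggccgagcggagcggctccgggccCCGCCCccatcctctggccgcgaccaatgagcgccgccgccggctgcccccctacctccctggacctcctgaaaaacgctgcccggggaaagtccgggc
BTG1: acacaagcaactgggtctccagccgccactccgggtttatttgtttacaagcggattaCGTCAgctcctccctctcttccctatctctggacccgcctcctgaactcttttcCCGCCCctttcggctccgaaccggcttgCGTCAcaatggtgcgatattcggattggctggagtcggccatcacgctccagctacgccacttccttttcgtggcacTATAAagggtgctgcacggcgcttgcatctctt
ZFP36L1: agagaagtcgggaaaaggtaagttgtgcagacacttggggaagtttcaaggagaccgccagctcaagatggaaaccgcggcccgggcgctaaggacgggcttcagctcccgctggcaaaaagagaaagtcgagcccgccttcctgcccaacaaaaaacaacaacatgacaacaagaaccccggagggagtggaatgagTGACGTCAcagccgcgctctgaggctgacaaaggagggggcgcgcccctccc

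The motifs were searched on both strands, and their shares are among the same 250 bases of 35114 RefSeq entries. The EGR site GCGNGGGCG, bound by early growth response factors, was present in BTG2 at 172 and at 151 bases before the start, each overlapping a GC box, and in no other of the 9 entries, against 8.41% of all. The cyclic AMP response element TGACGTCA was found only in ZFP36L1, 52 bases before the start, against 1.65% of all, and its core TGACG was in 5 of the 9 entries, among them BTG1 with 2 and BTG2 with 1, against 21.2%. The GC box GGGCGG was in 6 of 9 entries, against 42.6%, with 3 each in ZFP36, in BTG2 and in 1 of the TOB1 entries. TATAA, the core of the TATA box, was in ZFP36, 30 bases before the start, and in BTG1, 33 bases before it, against 18.9% of all. Neither the AP-1 site TGANTCA (6.57% of all) nor the CArG box (1.16% of all), bound by SRF, was in any of the 9. A match of letters describes the sequence and shows no binding.

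ZFP36L1, which acts on AU-rich mRNAs as ZFP36 does, read 14.22, 14.21, 15.12 and 13.99 on MED-CTL replicates 1 to 4 and 14.09, 14.08, 14.41 and 14.22 on the p31-43 replicates. The PT replicates read 14.81, 14.64, 14.89 and 14.79, and the PT-G replicates 14.59, 14.78, 15.63 and 14.85. MED-CTL replicate 3 and PT-G replicate 3 stood above the other arrays of their groups, and MED-CTL replicate 3 alone made PT-G and MED-CTL overlap. The difference was 0.58 for PT-G (SE 0.23, limma, adjusted p = 0.488) and 0.40 for PT (SE 0.23, limma, adjusted p = 0.712), positive in 4 of 4 and in 3 of 4 runs.

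The dimmer ZFP36L1 probe, 1799 bases away, gave a like difference, 0.57 for PT-G (SE 0.21, limma, adjusted p = 0.396) and 0.35 for PT (SE 0.21, limma, adjusted p = 0.718), positive in every run in both. On that probe MED-CTL replicate 3 was the lowest of the 16 arrays at 7.63, not the highest of its group. With the slide as a block, in which 1 slide held no MED-CTL array, the brighter probe passed for PT-G (adjusted p = 0.0123) and for PT (adjusted p = 0.0299), and the dimmer one for PT-G (adjusted p = 0.0422, and 0.0495 with the run as a block).

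ZFP36L2, the remaining family member on the array, lay within a narrow range, from 14.59 to 14.81 on the MED-CTL arrays, 14.30 to 14.62 on p31-43, 14.40 to 14.88 on PT and 14.80 to 15.15 on PT-G. The groups PT-G and MED-CTL overlapped by a single array. Its difference was 0.24 for PT-G (SE 0.11, limma, adjusted p = 0.611) and 0.03 for PT (SE 0.11, limma, adjusted p = 0.962). Under p31-43 it read lower than MED-CTL in 4 of 4 runs, by −0.51 to −0.05, with a mean of −0.23 (95% confidence interval −0.47 to 0.01), which did not pass.

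TOB1 and TOB2, which bridge CCR4-NOT and the poly(A) binding protein, did not pass in any comparison. Their brighter probes had r = 0.38 over the 16 arrays and 0.83 after the run means were taken out. TOB1 read 12.93, 12.86, 13.99 and 12.25 on MED-CTL replicates 1 to 4, and 13.00, 13.04, 13.88 and 12.37 on the PT-G replicates. On the PT replicates it read 13.13, 13.01, 12.39 and 12.50, and on the p31-43 replicates 12.81, 12.76, 12.67 and 12.05. Replicate 3 was thus the highest array in MED-CTL and PT-G but not in PT or p31-43.

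The TOB1 difference was 0.07 for PT-G (95% confidence interval −0.70 to 0.83) and −0.25 for PT (−1.02 to 0.51). In run 3 alone the PT difference was −1.60 and the p31-43 difference −1.32, while in the other runs the PT difference was 0.07 to 0.27. Without MED-CTL replicate 3 the PT difference was 0.07. The median intensity of the whole array was 153 on MED-CTL replicate 3, 198 on PT-G replicate 3, 268.5 on p31-43 replicate 3 and 410 on PT replicate 3, and the last was on another slide than the others. The part of these in the TOB1 values was not tested.

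The dimmer TOB1 probe, 779 bases away and listed in the opposite coordinate order, gave 0.18 for PT-G (−0.19 to 0.56) and 0.28 for PT (−0.09 to 0.65). Its PT replicates, at 10.81 to 10.98, lay above its MED-CTL replicates, at 10.44 to 10.74, without overlap. The 2 probes had r = −0.09 over the 16 arrays and 0.19 after the run means were taken out.

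TOB2 read 11.14 to 12.08 on MED-CTL, 11.22 to 11.59 on p31-43, 11.32 to 11.84 on PT and 11.30 to 12.13 on PT-G, and its differences were 0.21 for PT-G (−0.27 to 0.69) and 0.03 for PT (−0.46 to 0.51). Its probes, 3254 bases apart, had r = −0.69 over the 16 arrays and −0.26 after the run means were taken out. The dimmer probe read 9.2863 to 10.05 on the early slides and 8.34 to 9.2836 on the late slides, so that the nearest arrays were almost level. The brighter probe read 11.14 to 11.44 on the early and 11.30 to 12.13 on the late slides. Between conditions neither probe passed the test.

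**Figure D3:**
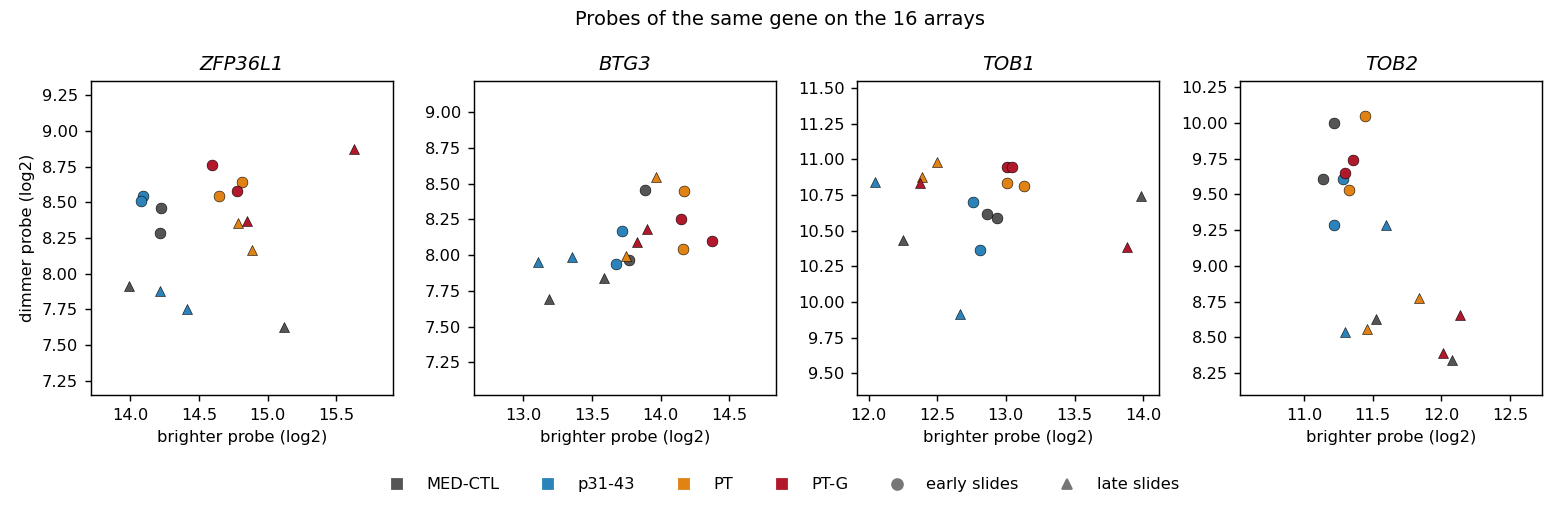
Normalized log2 intensity of the dimmer probe (y axis) against the brighter probe (x axis) for the 4 genes with 2 probes, 1 point per array, coloured by condition, circles for early and triangles for late slides, each axis spanning the same number of log2 units. The dimmer TOB2 probe reads higher on the early slides, with the nearest early and late arrays almost level. The early and late ranges of the brighter one overlap, and the TOB1 probes show no common trend.

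Whether the enzyme effect differed between early and late slides was tested as a difference of differences. None of the 8 genes passed an adjusted p of 0.05 for PT-G or PT, and for the brighter probes none had an unadjusted p under 0.05 (limma), while 27 probes of the whole array passed for PT-G and 35 for PT. On the dimmer ZFP36L1 probe the PT-G difference was 0.55 larger on the late slides (SE 0.23, limma, adjusted p = 1.00), which was under 0.05 before adjustment. For ZFP36 the late difference exceeded the early one by 0.21 (SE 0.42) under PT-G and by 0.42 (SE 0.42) under PT.

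**Figure D4:**
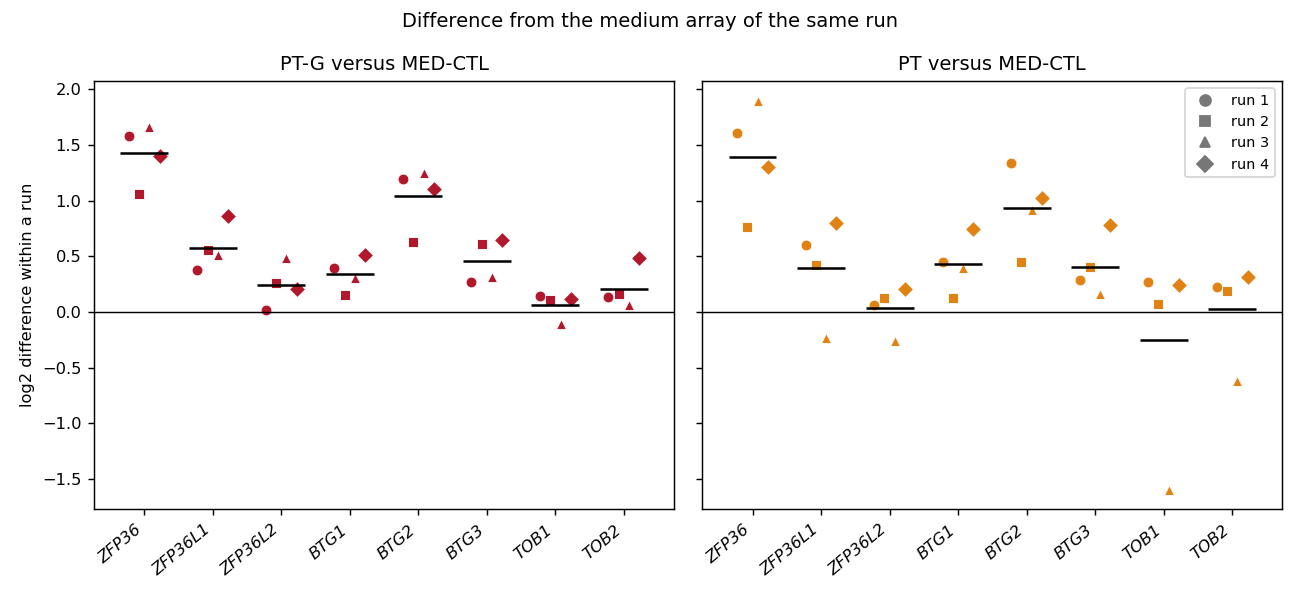
Log2 difference from the MED-CTL array of the same run (y axis) for each gene (x axis) under PT-G and PT, 1 point per run with the line at the mean. ZFP36, BTG1, BTG2 and BTG3 lie above 0 in all 4 runs of both panels, and run 3 under PT lies below 0 for ZFP36L1, ZFP36L2, TOB1 and TOB2.

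The peptide p31-43 was compared with medium to see what a synthetic gliadin peptide given without the enzymes does. No gene of the 8 passed an adjusted p of 0.05 or an unadjusted p of 0.05 (limma), and of all probes 0% were higher at the adjusted and 2.15% differed at the unadjusted threshold. The difference was 0.23 for ZFP36 (95% confidence interval −0.29 to 0.74) and 0.11 for BTG2 (−0.19 to 0.40). Both upper bounds lie below the PT-G and PT estimates of the same gene. Against the p31-43 arrays instead of MED-CTL, ZFP36 was 1.20 higher under PT-G (limma, adjusted p = 0.0271) and 1.17 under PT (limma, adjusted p = 0.0395), and BTG2 was 0.94 (adjusted p = 0.00465) and 0.82 (adjusted p = 0.0121).

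PT-G was compared with PT to separate gliadin from the enzymes. Here too none of the 8 genes passed an adjusted or an unadjusted p of 0.05 (limma), where 0% of all probes were higher at the adjusted and 0.781% differed at the unadjusted threshold. ZFP36 differed by 0.03 (95% confidence interval −0.48 to 0.55), BTG2 by 0.11 (−0.18 to 0.41) and BTG1 by −0.09 (−0.33 to 0.16). The widest interval was that of TOB1, 0.32 (−0.45 to 1.09), so a difference of that size could not be told from the spread.

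For ZFP36 and BTG2 the order of the mean levels was thus MED-CTL, p31-43, PT and PT-G, with a step beyond the spread only between p31-43 and PT. BTG1 had PT above PT-G and the other pair within 0.01 of each other. BTG3, ZFP36L1 and ZFP36L2 ran p31-43, MED-CTL, PT and PT-G, TOB2 had the same order, TOB1 ran p31-43, PT, MED-CTL and PT-G, and for none of these 5 did neighbours in the order differ past the test.

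Of the 27 listed genes of the deadenylation and decapping machinery, 24 were measured. DCP1B, a cofactor of the decapping enzyme, fell by 0.77 under PT-G (SE 0.15, limma, adjusted p = 0.0251) and by 0.72 under PT (SE 0.15, limma, adjusted p = 0.0400), with every enzyme-treated array below every MED-CTL array. It was the only one of the 24 to pass in either comparison, and none passed upwards. Of all probes, 0.351% were lower for PT-G and 0.383% for PT. Its paralogue DCP1A read 0.36 and 0.39 above MED-CTL (limma, adjusted p = 0.115 and 0.0805). The scaffold CNOT1 and the catalytic subunits CNOT7 and CNOT8 of CCR4-NOT had differences of 0.36, −0.11 and 0.16 under PT-G, none past the test, and the other CNOT1 probes gave smaller values. The list had a median difference of −0.11 for PT-G and −0.12 for PT.

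Among other RNA-binding regulators of mRNA stability, 9 of 11 were measured and 0 passed (limma), with 1 higher at an unadjusted p under 0.05 under PT-G, and 1 higher and 1 lower under PT. At that threshold 4.19% of all probes were higher for PT-G, and 4.19% were higher and 4.79% lower for PT. These counts take the brightest probe of each gene, which for ELAVL1 gave 0.16 under PT-G and 0.03 under PT. A dimmer ELAVL1 probe gave 0.26 and 0.32 (SE 0.10 in both, limma, adjusted p = 0.404 and 0.207), and another 0.19 and 0.11. ZC3H12A, an endonuclease that cleaves cytokine mRNAs, was 0.92 higher under PT-G (SE 0.24, adjusted p = 0.121) and 0.74 under PT (SE 0.24, adjusted p = 0.263). TIA1, a translational repressor, had −0.26 under PT-G and −0.50 under PT, neither past the test, and its other probe gave −0.22 under PT.

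Of 9 kinases, phosphatases and adaptors known to act on ZFP36 proteins, all were measured and 0 passed, also at an unadjusted p under 0.05 (limma). The differences with the largest size were −0.20 under PT-G and −0.30 under PT, both of the adaptor YWHAZ, followed by its relative YWHAE with −0.19 and −0.30. The other 5 YWHAZ probes disagreed, with −0.11 to 1.73 under PT-G and none past the test. MAPKAPK2, the kinase that restrains ZFP36, had 0.10 and 0.26.

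Transcripts known as targets of ZFP36 family proteins lay mostly above MED-CTL. Of 22 listed, 21 were measured. Of these, 3 rose under PT-G, where 0.593% of all probes did, and 3 under PT, where 0.437% did. In neither comparison did a target fall, where 0.351% of all probes fell for PT-G and 0.383% for PT. At an unadjusted p under 0.05, 12 of the 21 were higher under PT-G and 10 under PT, and 0 were lower, while 4.19% of all probes were higher in each. Their median difference was 0.55 for PT-G and 0.50 for PT, with −0.01 for all probes in both. The counts and medians take the brightest probe of each gene. For MYC that probe had a mean of 14.25 on MED-CTL, 15.32 under PT-G and 14.96 under PT. The other MYC probes disagreed, with −0.21 and 0.79 under PT-G and −0.25 and 0.55 under PT, none past the test. The other probes of the remaining targets read above MED-CTL.

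IER3, an early response gene that acts on cell survival, changed by 2.89 under PT-G (SE 0.24, limma, adjusted p = 7.43e-05) and by 2.81 under PT (adjusted p = 8.98e-05). CCL20, an epithelial chemokine, was 1.32 higher under PT-G (SE 0.22, limma, adjusted p = 0.0115) and 1.14 under PT (adjusted p = 0.0286). For the cyclooxygenase PTGS2 the brighter probe did not pass under PT-G (0.96, adjusted p = 0.0696), and the dimmer one did (1.09, adjusted p = 0.0404), and under PT neither passed (0.77, adjusted p = 0.181, and 0.85, adjusted p = 0.133).

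The neutrophil chemokine IL8 was well above background on all PT-G and PT arrays and on no MED-CTL array. It was therefore at least 1.72-fold higher under PT-G (limma, adjusted p = 0.0126) and at least 1.69-fold higher under PT (adjusted p = 0.0172). The floor was, per MED-CTL array, the higher of its own reading and the lowest reading of any probe well above background. To the digits given, this left the MED-CTL mean of IL8 unchanged, so the bounds equal the folds of the group means. These bounds take group means and make no allowance for the spread between arrays (SD 0.23 under PT-G, 0.29 under PT and 0.09 on MED-CTL). TNF, the classical ZFP36 target, was dim, at a mean of 6.40 on the MED-CTL arrays, and had 0.07 under PT-G and 0.04 under PT, neither past the test.

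**Figure D5:**
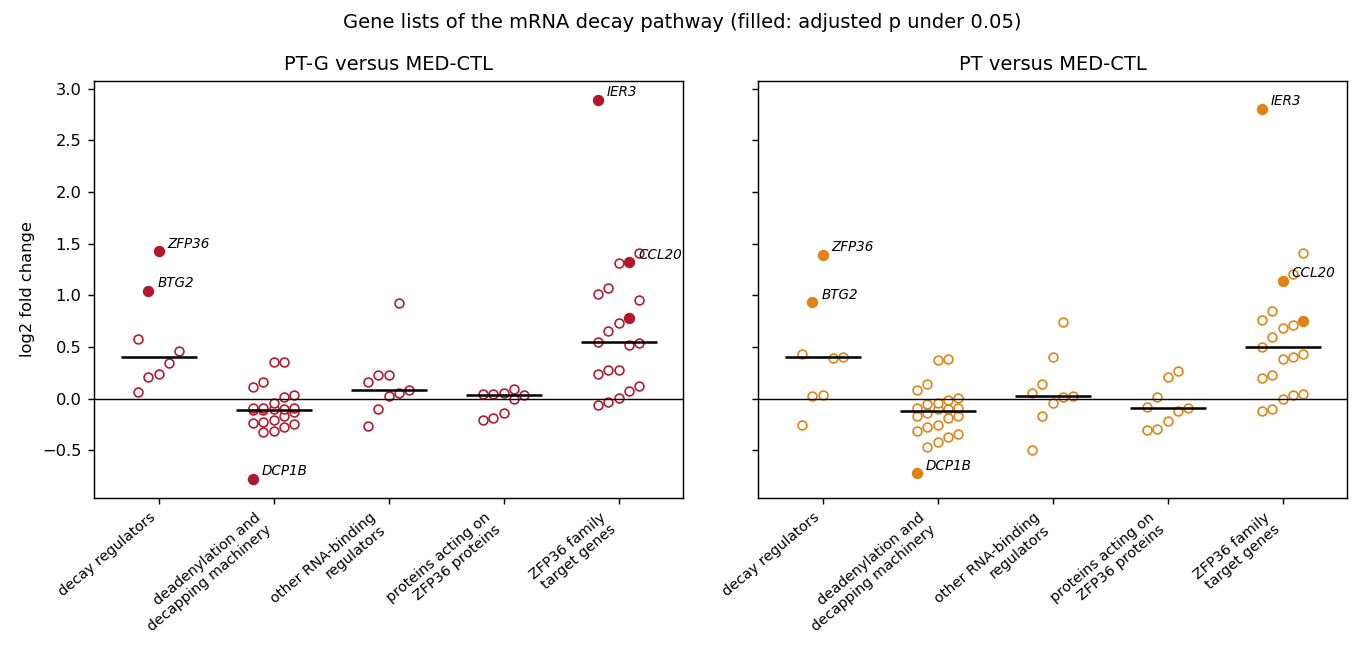
Log2 fold change (y axis) of the 8 regulators and the 4 pathway lists (x axis) under PT-G and PT, 1 point per gene, filled where the adjusted p was under 0.05, with the line at the list's median. The target genes lie mostly above 0 and the machinery around or below it. The unlabelled filled target gene is IL8, drawn at its fitted value, which equals the bound to the digits given.

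The genes whose readings most resembled ZFP36 were sought among 18443 probes of named genes that were well above background on every array. Over the 16 arrays these were EDN1 (r = 0.98), NR1D1 (0.97), CDKN1A (0.97), SPRY4 (0.97) and GDF15 (0.97). With run means out they were SPRY4 (0.99), HBEGF (0.99), IER3 (0.98), EDN1 (0.98) and AVPI1 (0.98). Nearest to BTG2 were DUSP5 (0.98), JUNB (0.97), PPARA (0.96), DLX2 (0.96) and BHLHB2 (0.96), and with run means out JUNB (0.99), DUSP5 (0.98), EDN1 (0.98), NR4A1 (0.98) and GEM (0.98). EDN1, which encodes endothelin, was thus on both lists, with differences of 1.63 under PT-G and 1.60 under PT.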

How the data were processed

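Total RNA of Caco-2 cells was hybridised to 1-colour whole genome arrays, 4 for each condition. The authors deposited the intensity of each spot as given by the image analysis, on a linear scale, and a log2 table that differs by at most 5e-09 from the median foreground intensity normalized with the quantiles method over all spots. The other columns used, deposited as marks, flag controls, outliers and spots well above background.

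Here the log2 median foreground of 43376 spots without controls was normalized with the quantiles method, with no background correction. The 1774 outlier spots were left out and spots of a probe averaged. For the 40982 probes with at least 3 arrays per group, a single model of all conditions was fitted by limma (version 3.58.1, R version 4.3.3), with Benjamini-Hochberg adjustment over all probes. A change was called at an adjusted p under 0.05. The p-values cover the spread between 4 experiments on 1 line, intensity over background stands in for depth, and precision is limited by how many arrays there are. Whole cultures do not tell RNA per cell from the number of expressing cells.

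The 8 genes, the lists and the tests were chosen with earlier results of these data known. Named are the 8 genes, from each list those that passed under PT-G or PT (at most the 6 of largest change, otherwise the 2 of largest change), and the 5 genes most like ZFP36 and BTG2. DCP1A, CNOT1, CNOT7, CNOT8, ELAVL1, PTGS2, TNF, MYC, MAPKAPK2, KRT20, CDX2, PTPRC and COL3A1 were added after their values were seen. From the list of ZFP36 targets, 1 gene is not reported here, and its counts and medians leave that gene out. The model was tested on simulated data. Motifs were counted in RefSeq promoters. Of same-numbered arrays, deviations from the group means correlated by 0.395 to 0.858 for PT-G with MED-CTL, 0.263 to 0.708 for p31-43 with MED-CTL, −0.0176 to 0.410 for PT with MED-CTL and 0.0370 to 0.695 for PT-G with PT, so the replicate numbers pair only the first 2 comparisons. For arrays of the same run the values were, with MED-CTL, 0.625 to 0.858 for PT-G, 0.536 to 0.708 for p31-43 and −0.0176 to 0.618 for PT. Those for PT-G with PT were the same by run as by replicate number.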

Additional observations from a re-analysis of the deposited data

How the results depend on the processing

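Over 30 settings ZFP36 lay between 1.20 and 1.66 above the reference under PT-G and between 1.17 and 1.63 under PT, and BTG2 between 0.94 and 1.19 and between 0.82 and 1.07. Both passed in all of these except the fit of only the 2 groups compared, in which 0 of 8 genes passed for PT-G and 0 for PT. That fit called 38 of all probes for PT-G and 21 for PT, against 387 and 336 in the model of all conditions. ZFP36 under PT also did not pass without MED-CTL replicate 2. Leaving out each array in turn, 2 genes passed for PT-G each time and 1 to 2 for PT. At the nominal threshold the PT-G count was 4 with the replicate block, 4 with early against late slides as the block, 4 with the probes of a gene averaged, 5 when the run was the block and 6 against the p31-43 arrays, a reference chosen after seeing the data. At that threshold the model without a block called 1408 of all probes for PT-G in either direction. The replicate block called 3110, early against late slides 2397 and the run 3755. With the probes of a gene averaged 1098 of 30971 were called, and against the p31-43 arrays 1528 of all probes. When the slide was the block, 5 of the 8 genes passed for PT-G and 5 for PT at the nominal p, where 5011 and 4333 of all probes did. At the adjusted p the slide also gave 5 and 5 of the 8 genes, and the run gave 4 for PT. The calls among all probes at the adjusted p rose in the same fits, from 387 for PT-G and 336 for PT to 3813 and 2859 with the slide and 2357 and 2689 with the run. The replicate block, a paired fit, changed the calls of BTG3 and of no other of the 8 genes. Median scaling moved the median of all probes to −0.11 for PT.

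The differences that changed sign were past no threshold. For BTG1 under p31-43 the value became 0.0088 with the background-subtracted signal, 0.11 with median scaling and 0.0439 with slide as a block. For TOB1 under PT it became 0.0131 with probes averaged, 0.0517 with slide as a block and 0.18 against p31-43. For TOB2 under PT it was −0.0025 with the background-subtracted signal, and for BTG3 between PT-G and PT −0.0246 with probes averaged. Leaving out 1 array at a time, TOB1 ran from −0.2031 to 0.3915 under PT-G and from −0.506 to 0.0722 under PT, ZFP36L2 from −0.0195 to 0.1393 and TOB2 from −0.0922 to 0.2209 under PT. Under p31-43, ZFP36L1 ran from −0.3176 to 0.0578, BTG1 from −0.0784 to 0.0529 and TOB2 from −0.2589 to 0.0542. Between PT-G and PT, ZFP36 ran from −0.0832 to 0.1637, ZFP36L1 from −0.0425 to 0.3043, BTG1 from −0.1421 to 0.0137 and BTG3 from −0.0512 to 0.1309. The cause was not tested.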
